A study of Mus musculus with 15 samples.

Results

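The 10 genes described here encode proteins of the astrocyte surface and its water, ion and gap junction transport, together with the astrocyte enzymes and cytoplasmic proteins usually listed beside them: Aqp4, Mlc1, Hepacam, Slc4a4, Atp1b2, Gja1, Gjb6, Gpr37l1, Aldh1l1 and Ndrg2. They were chosen by name, and each was read from whichever of its probe sets had the highest mean over 15 arrays, so that 10 of the 18193 genes measured are described. The arrays held RNA of sorted astroglia of the adult mouse brain, 5 arrays for each of 3 regions: the subventricular zone, or SVZ, along the lateral ventricle, the hippocampus, and the cerebellum. SVZ and hippocampus each hold a neural stem cell niche of the adult brain, and cerebellum was the region against which the study compared both.

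All 3 groups shared 1 genotype, Gli1-CreER;GFAP-GFP;R26tdTomato, and 1 treatment, and the labels give region as what set the groups apart. The mice were males of 6 to 8 weeks, given 2 doses of 10 mg tamoxifen. Gli1-CreER drives a tamoxifen-dependent recombinase from Gli1, a target gene of Sonic hedgehog, and switches on the red tdTomato reporter. GFAP-GFP marks cells that use the promoter of the astroglial filament gene Gfap. Cells carrying both colours were sorted 3 weeks after tamoxifen, so each array describes the labelled fraction of a region and not all of its astrocytes. Each array held a pool of 10 to 12 mice, and p values measure the spread between such pools.

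Astrocytes wrap blood vessels with endfeet, take up potassium released by neurons, and pass ions and water on to one another through gap junctions. Aqp4 is the water channel of the endfoot, Mlc1 and Hepacam (also called GlialCAM) form a membrane complex that acts in cell volume control, Slc4a4 carries sodium with bicarbonate, and Atp1b2 is a beta subunit of the sodium pump. Gja1 and Gjb6 encode connexin 43 and connexin 30, the main connexins of astrocytes. Gpr37l1 is a receptor of astrocytes, Aldh1l1 a folate enzyme used as a marker of the cell type, and Ndrg2 a cytoplasmic protein used in the same way.

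Values were log2 signals after RMA, a method that turns the probes of a set into 1 background-corrected and normalized value per array. Array medians lay between 1.12 and 1.31 and maxima between 14.97 and 15.08. The cerebellum arrays were more alike (pairwise correlation across genes 0.939 to 0.97) than those of SVZ (0.763 to 0.894) or hippocampus (0.791 to 0.884), and over the 4817 genes with a mean level of at least 3 the median SD was 0.481 in cerebellum and 1.00 in each of the other two regions. Probe sets above a level of 3 made up 20.14% to 22.45% on cerebellum arrays, 15.25% to 19.79% in hippocampus and 15.14% to 19.5% in SVZ. The poly-A spike-in probe sets averaged 8.49 to 12.34 in cerebellum, 11.51 to 12.85 in hippocampus and 11.04 to 13.1 in SVZ. In pooled cells, fewer cells of a type and less RNA per cell cannot be told apart.

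The labelled cell type was checked against 10 astrocyte markers, and all 10 had a mean level above 3 in each region. Their summed level was 12.32 to 13.06 in SVZ, 11.97 to 13.03 in hippocampus and 12.56 to 13.78 in cerebellum on the log2 scale. In SVZ 1 of the 10 was called higher than in cerebellum and 2 lower, and in hippocampus 0 higher and 3 lower. The glutamine synthetase gene Glul was the one called higher (0.92, adjusted p = 0.0279). S100b, a calcium-binding protein of astrocytes, was lower, at -3.41 for SVZ (adjusted p = 0.000254) and -3.67 for hippocampus (0.000118). The glutamate transporter gene Slc1a3 averaged 9.96 ± 0.31 in SVZ and 9.64 ± 0.60 in hippocampus, below the 11.80 ± 0.76 of cerebellum (SD over 5 arrays, as for all means here). Gfap itself averaged 4.51 ± 1.06, 6.93 ± 0.63 and 4.99 ± 1.23 in the same order.

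The forebrain regions held less signal than cerebellum for 4 of the 10 genes. Ndrg2 was lower, with log2 differences of -1.39 in SVZ and -1.65 in hippocampus, and so was Mlc1, with -1.28 and -1.39. Slc4a4 and Gpr37l1 passed the test in hippocampus alone, where Gpr37l1 had a difference of -1.97 and Slc4a4 of -1.82. The connexin genes Gja1 and Gjb6 passed in no comparison, and no gene of the 10 passed as higher in a forebrain region. SVZ and hippocampus were not separated by any of the 10.

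In SVZ against cerebellum, 2 of 10 were called lower and 0 higher at an adjusted p under 0.05 by limma, where 4.47% of all genes were called lower and 1.03% higher. In hippocampus against cerebellum 4 of 10 were called lower and 0 higher, against 3.97% and 0.808% of all genes. The 10 are brightly expressed, and among the 4817 genes with a mean level of at least 3 the shares called lower were 9.99% and 9.13%. The median difference of the 10 was -1.04 in SVZ and -1.17 in hippocampus, with 8 and 9 of the 10 below 0. At an adjusted p under 0.01 there were 1 and 2 of 10, against 2.13% and 2.01% of all genes. Over all genes that median was 0.068 in each comparison, and over the genes at a level of at least 3 it was -0.71 in SVZ and -0.70 in hippocampus, with 76.2% and 78.7% of them lower.

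Both comparisons use the same cerebellum arrays, so their values stand side by side and neither repeats the other. With quantile normalization the medians came closer to 0, at -0.30 and -0.23 for the genes at a level of at least 3, of which 62.3% and 60.2% were lower, and at -0.64 and -0.86 for the 10. Centring each array on its median moved the median of all genes to -0.036 in SVZ and -0.044 in hippocampus. The study's own thresholds, a change beyond 4-fold with an unadjusted p below 0.01 in both regions, were met by 1.69% of all genes and by 0 of the 10, whose largest ratio was 3.91-fold for Gpr37l1.

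**Figure D1:**
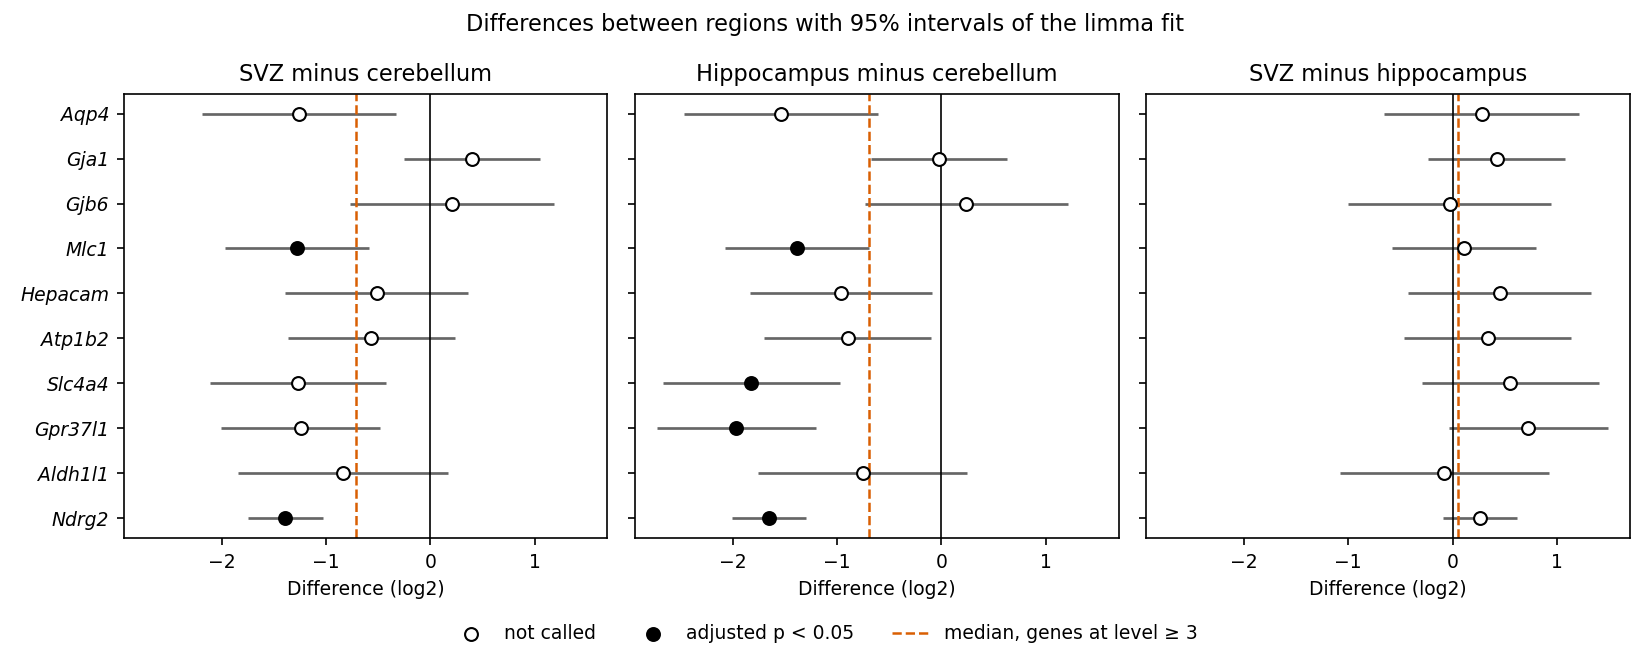
Difference between regions (log2, horizontal axis) of each of the 10 genes with its 95% interval from limma, filled where the adjusted p is under 0.05, and a dashed line at the median of genes with a level of at least 3. The filled points are Mlc1 and Ndrg2 in SVZ against cerebellum and Mlc1, Slc4a4, Gpr37l1 and Ndrg2 in hippocampus against cerebellum, all left of 0, and no point is filled in SVZ against hippocampus.

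Ndrg2 and Mlc1 are the genes called in both comparisons, and the bases before their start sites are shown for that reason. RefSeq windows (build GRCm38.p6) were matched for 8 of the 10 genes, 11 windows in all, and Aqp4 and Atp1b2 were not matched. The 250 bases upstream of 1 Ndrg2 start lie at chr14:51914005-51914254 and those of Mlc1 at chr15:88978554-88978803, both on the minus strand and printed 5′ to 3′. Capitals mark matches, on either strand, to TTGGC, the core of the nuclear factor I site, and to TATAAA, the TATA box.
Ndrg2: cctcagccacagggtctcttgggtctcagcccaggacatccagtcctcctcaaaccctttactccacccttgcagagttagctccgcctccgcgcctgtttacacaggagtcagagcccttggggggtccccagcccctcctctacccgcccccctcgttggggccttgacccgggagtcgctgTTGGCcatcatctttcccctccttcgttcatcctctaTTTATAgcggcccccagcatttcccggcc
Mlc1: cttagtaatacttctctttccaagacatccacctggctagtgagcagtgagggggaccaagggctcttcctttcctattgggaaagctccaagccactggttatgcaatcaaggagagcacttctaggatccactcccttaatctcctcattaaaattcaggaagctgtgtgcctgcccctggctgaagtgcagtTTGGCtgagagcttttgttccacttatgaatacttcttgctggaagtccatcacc
The Ndrg2 window shown held 1 TTGGC and 1 TATA box match in 62.0% GC. It was picked among the windows of Ndrg2 for its TATA box match, so that match is not a result. Of the other windows of Ndrg2, neither held a TATA box match and 1 held TTGGC. The Mlc1 window held 1 TTGGC and no TATA box match in 48.0% GC with 0 CpG. Of all 32851 such windows, 41.5% held TTGGC, 12.4% a TATA box match and 27.7% ACAAT, the core of the SOX site, which neither window held. The median over all windows was 52.4% GC and 6 CpG. These matches describe the letters, since the arrays measured RNA alone.

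The water channel Aqp4 was uneven within the forebrain regions and even within cerebellum. Aqp4 read 8.12, 8.48, 8.89, 6.77 and 7.72 on SVZ 1 to 5, 8.92, 6.31, 7.76, 7.69 and 7.91 on hippocampus 1 to 5, and 9.14, 9.06, 9.19, 9.66 and 9.23 on cerebellum 1 to 5. All 10 forebrain arrays lay below all 5 cerebellum arrays, with SVZ 4 and hippocampus 2 the lowest of their regions and the cerebellum arrays close together. The means were 8.00 ± 0.81, 7.72 ± 0.93 and 9.26 ± 0.23. The genes at a level of at least 3 had a median SD of 1.00 in each forebrain region and 0.481 in cerebellum. The wider forebrain spread is thus not particular to Aqp4. The difference was -1.26 ± 0.43 (SE) for SVZ (2.40-fold lower, adjusted p = 0.114) and -1.54 ± 0.43 for hippocampus (2.90-fold lower, adjusted p = 0.0615), and neither was called. The hippocampus difference was called in 5 of 27 other settings, among them without SVZ 4 (adjusted p = 0.0337), without hippocampus 1 (adjusted p = 0.0242) and with median centring (adjusted p = 0.0378).

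Mlc1, the membrane protein whose loss in humans causes a leukoencephalopathy with cysts, was lower in both forebrain regions. Mlc1 read 8.61, 8.43, 8.19, 6.86 and 7.73 in SVZ, 8.09, 7.40, 7.71, 7.66 and 8.41 in hippocampus, and 9.22, 9.55, 8.70, 9.76 and 8.97 in cerebellum, in array order. The lowest cerebellum array lay above the highest forebrain array, SVZ 1, by less than the SD of any region. From means of 7.96 ± 0.70, 7.85 ± 0.40 and 9.24 ± 0.43, the difference was -1.28 ± 0.32 for SVZ (2.42-fold lower, adjusted p = 0.0329) and -1.39 ± 0.32 for hippocampus (2.61-fold lower, adjusted p = 0.0237).

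The call of Mlc1 held in 15 of 27 other settings in SVZ and in 18 of 27 in hippocampus, while the difference kept its direction, at -1.44 to -0.96 and -1.53 to -1.04. In SVZ the adjusted p passed 0.05 without SVZ 4 (0.0516), SVZ 5 (0.0693), cerebellum 1 (0.0618), cerebellum 2 (0.0833), cerebellum 4 (0.0858) or cerebellum 5 (0.0563). In hippocampus it did so without hippocampus 3 (0.0545), hippocampus 4 (0.0538), cerebellum 2 (0.0654) or cerebellum 4 (0.0686). For SVZ and hippocampus it was 0.192 and 0.175 under quantile normalization, 0.444 and 0.347 when the spike-in level was a covariate, 0.171 and 0.143 when cerebellum 4 and 5 were omitted, and 0.0666 and 0.0552 with the replicate number as a block. It was 0.0549 in SVZ when only the compared groups were fitted.

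Hepacam, the adhesion protein that brings Mlc1 to cell junctions, did not pass in either region in the fit used. In 1 of 27 other settings, the replicate number as a block, its hippocampus difference was called (SE 0.22, adjusted p = 0.0406). Hepacam read 7.16, 7.37, 6.43, 7.73 and 5.83 in SVZ, 6.08, 6.49, 5.85, 7.79 and 6.06 in hippocampus, and 7.23, 7.54, 7.00, 8.11 and 7.20 in cerebellum. SVZ 4 and hippocampus 4 lay among the higher cerebellum arrays, and the other hippocampus arrays lay below every cerebellum array. Its differences were -0.51 ± 0.41 for SVZ (adjusted p = 0.490, 95% interval -1.39 to 0.36) and -0.96 ± 0.41 for hippocampus (adjusted p = 0.208, interval -1.84 to -0.09). The intervals hold differences as large as that of Mlc1, so the data do not separate the 2 partners.

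Slc4a4, the cotransporter that brings bicarbonate into and out of astrocytes with sodium, fell below cerebellum in hippocampus. Slc4a4 read 9.0, 8.96, 8.45, 8.98 and 7.64 in SVZ, 8.66, 7.10, 7.70, 8.94 and 7.86 in hippocampus, and 9.33, 10.04, 9.26, 10.79 and 9.94 in cerebellum. No forebrain array reached the lowest cerebellum array, and hippocampus 2 was the lowest of all 15. The hippocampus difference was -1.82 ± 0.39 (3.53-fold, adjusted p = 0.0161), from means of 8.05 ± 0.75 and 9.87 ± 0.62. The SVZ mean was 8.61 ± 0.59, a difference of -1.27 ± 0.39 that was not called (adjusted p = 0.0802). The hippocampus call held in 23 of 27 other settings, and was lost without cerebellum 4 and 5 (adjusted p = 0.143), with quantile normalization (0.0692), with the spike-in level as a covariate (0.328), and without hippocampus 2, hippocampus 5 and cerebellum 5 (0.125).

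Atp1b2, which is also an adhesion molecule of glia, ranged from 8.98 to 11.11 within cerebellum, further than the region means lay apart. Atp1b2 read 8.90, 9.80, 9.78, 9.86 and 8.83 in SVZ, 9.39, 8.45, 9.19, 9.23 and 9.23 in hippocampus, and 9.31, 10.35, 8.98, 11.11 and 10.24 in cerebellum. Cerebellum 1 and 3 lay within the forebrain range, and hippocampus 2 stood below the rest of its region. Neither the SVZ difference of -0.56 ± 0.37 (adjusted p = 0.404) nor the hippocampus difference of -0.90 ± 0.37 (adjusted p = 0.197) was called, and with the spike-in level as a covariate the SVZ difference was 0.016.

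The connexin genes showed no called difference. Gja1 read 11.45, 11.61, 11.67, 11.53 and 11.15 in SVZ, 11.28, 10.44, 11.06, 11.53 and 10.99 in hippocampus, and 10.52, 10.78, 10.59, 12.29 and 11.24 in cerebellum. The SVZ arrays were the most even, and the cerebellum arrays ran from near the lowest of all to the highest of all. Gja1 differed by 0.40 ± 0.30 for SVZ (adjusted p = 0.474, 95% interval -0.26 to 1.05) and by -0.02 ± 0.30 for hippocampus (adjusted p = 0.970, interval -0.68 to 0.63), and the sign of the latter turned with quantile normalization, to 0.014. Without cerebellum 4, the brightest array for Gja1, the hippocampus value was 0.28.

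Gjb6, the connexin that is made later in astrocyte development, overlapped across all 3 regions. Gjb6 read 5.81, 6.37, 7.04, 5.35 and 6.66 in SVZ, 7.21, 4.61, 6.48, 5.89 and 7.19 in hippocampus, and 5.62, 5.86, 6.21, 6.50 and 6.00 in cerebellum. The hippocampus arrays held both the highest and the lowest value of the 15. The differences were 0.21 ± 0.45 for SVZ (adjusted p = 0.811, interval -0.77 to 1.18) and 0.24 ± 0.45 for hippocampus (adjusted p = 0.779, interval -0.74 to 1.21). Both intervals reach past a 2-fold higher level, so the data do not show that the regions are alike.

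Gpr37l1, an orphan-type receptor of astrocytes for which prosaposin has been proposed as ligand, had the largest ratio of the 10. Gpr37l1 read 8.15, 7.97, 8.01, 7.67 and 7.77 in SVZ, 8.17, 6.49, 6.42, 8.15 and 6.71 in hippocampus, and 8.52, 9.15, 9.08, 9.74 and 9.28 in cerebellum. Hippocampus 1 and 4 sat with the SVZ arrays, the other 3 hippocampus arrays sat lower, and all forebrain arrays lay below cerebellum. From means of 7.91 ± 0.19, 7.19 ± 0.89 and 9.15 ± 0.44, the difference was -1.97 ± 0.35 for hippocampus (3.91-fold, adjusted p = 0.00466) and -1.24 ± 0.35 for SVZ (2.36-fold, adjusted p = 0.0578). The hippocampus call held in 24 of 27 other settings, the exceptions being the fits without cerebellum 4 and 5 (adjusted p = 0.0605), with the spike-in covariate (0.146), and without hippocampus 2, hippocampus 5 and cerebellum 5 (0.0679). The SVZ difference was called in 7 of 27, among them without hippocampus 1 (0.0357), hippocampus 3 (0.0468) or hippocampus 4 (0.0371), whose removal changed the spread and not the difference.

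Aldh1l1, the folate enzyme, varied within each forebrain region by more than 2 log2 units. Aldh1l1 read 4.12, 5.49, 5.33, 6.07 and 3.84 in SVZ, 5.41, 3.99, 6.22, 4.64 and 4.98 in hippocampus, and 5.54, 6.19, 5.07, 6.27 and 5.95 in cerebellum. All regions overlapped. The differences of -0.83 ± 0.47 for SVZ (adjusted p = 0.328) and -0.76 ± 0.47 for hippocampus (adjusted p = 0.372) were not called.

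Ndrg2 had the smallest standard error of the 10 and was lower in both forebrain regions. Ndrg2 read 11.13, 11.49, 11.09, 11.56 and 11.45 in SVZ, 11.21, 10.85, 10.94, 11.22 and 11.19 in hippocampus, and 12.81, 13.22, 12.44, 12.64 and 12.56 in cerebellum. Every cerebellum array lay clear of every forebrain array, and SVZ and hippocampus overlapped. From means of 11.34 ± 0.22, 11.08 ± 0.17 and 12.73 ± 0.30, the difference was -1.39 ± 0.17 for SVZ (2.62-fold, adjusted p = 0.000207) and -1.65 ± 0.17 for hippocampus (3.14-fold, adjusted p = 3.7e-05). It was called in 27 of 27 other settings in both regions, with differences of -1.52 to -1.27 for SVZ (adjusted p 8.66e-05 to 0.0092) and -1.85 to -1.53 for hippocampus (1.6e-05 to 0.00311).

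**Figure D2:**
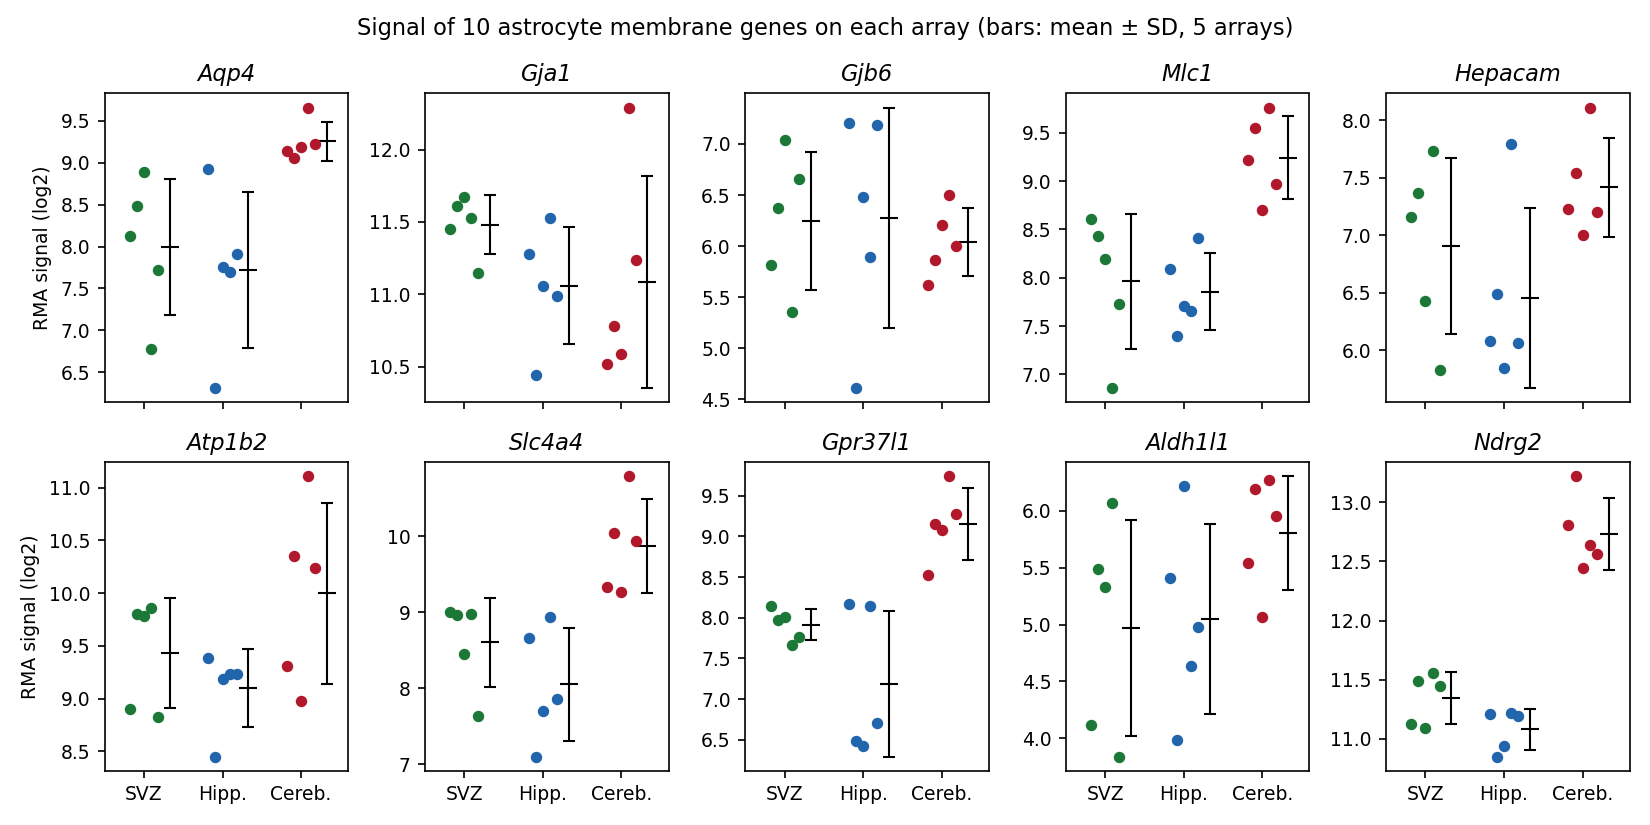
RMA signal (log2, vertical axis, a separate scale for each panel) of the 10 genes on each array, with 5 points per region and the mean ± SD beside them. Aqp4, Mlc1, Slc4a4, Gpr37l1 and Ndrg2 have all 10 forebrain points below the 5 cerebellum points, while Gja1 and Gjb6 overlap across the 3 regions.

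All forebrain arrays lay below all cerebellum arrays for 5 of the 10 genes in each comparison, namely Aqp4, Mlc1, Slc4a4, Gpr37l1 and Ndrg2. Of all genes, 6.02% did so in SVZ and 5.3% in hippocampus. Of the 4817 genes with a mean level of at least 3, a larger share did so, 732 in SVZ and 627 in hippocampus. For all 10 genes the order of SVZ and hippocampus stayed within their spread.

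SVZ and hippocampus were compared directly in the same fit, and 0 of 10 genes were called by limma, where 0.022% of all genes were called. At an unadjusted p under 0.05 there were 0 of 10, against 7.02% of all genes. Gpr37l1 came closest, higher in SVZ by 0.73 (95% interval -0.03 to 1.49, adjusted p = 0.708), and Slc4a4 differed by 0.55 (interval -0.29 to 1.40). Ndrg2 had the narrowest interval, -0.10 to 0.62 around 0.26, and Aldh1l1 (-1.08 to 0.93) and Gjb6 (-1.0 to 0.94) the widest. The 10 differences had a median of 0.31, and 8 were above 0, so a called difference in hippocampus and none in SVZ does not show that the 2 regions differ for Slc4a4 or Gpr37l1.

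Single arrays moved many of the genes together. Hippocampus 2 was the lowest array of its region for 8 of the 10 genes and lay on average 0.77 below the region mean, while the genes at a level of at least 3 had a median 0.47 above it on that array. Cerebellum 4 was the highest of its region for 9 of the 10, by 0.63 on average, against a median of 0.044 for the genes at a level of at least 3. Cerebellum 3 was the lowest for 6 of the 10 and SVZ 5 for 5 of the 10. SVZ 2 lay above the mean of its region for all 10, by 0.31 on average. The genes at a level of at least 3 had a median 0.25 above it on that array, so most of that shift was not particular to the 10.

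Choroid plexus markers differed between arrays of 1 region, and hippocampus 2 was among the arrays where they were high. Klotho (Kl), made by choroid plexus epithelium, read 7.79 on hippocampus 2, 6.75 on hippocampus 5 and 6.65 on cerebellum 5, and 0.66 to 3.25 on the other 12 arrays. The summed level of the 6 choroid markers was 11.19 to 14.01 in hippocampus, 6.98 to 14.03 in cerebellum and 6.16 to 10.36 in SVZ. That sum follows the marker Ttr, which read 11.18 to 13.94, 6.87 to 13.99 and 5.96 to 10.35 in the same order. Ttr was also high on cerebellum 3 (13.45) and cerebellum 4 (13.39). The marker Clic6 read 6.91 on hippocampus 2 and 6.58 on cerebellum 5 but 2.92 on hippocampus 5. Of the 6, 2 had a mean level below 3 in hippocampus, 4 in cerebellum and 5 in SVZ. The mean deviation of the 10 genes from their region was -0.77 on hippocampus 2, 0.07 on hippocampus 5 and 0.001 on cerebellum 5. It was -0.41 on cerebellum 3 and 0.63 on cerebellum 4. Whether choroid plexus RNA moved the 10 genes was not tested. Without hippocampus 2, hippocampus 5 and cerebellum 5, a setting chosen after seeing the data, 1 of the 10 genes was called in each comparison with cerebellum, Ndrg2 in both.

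**Figure D3:**
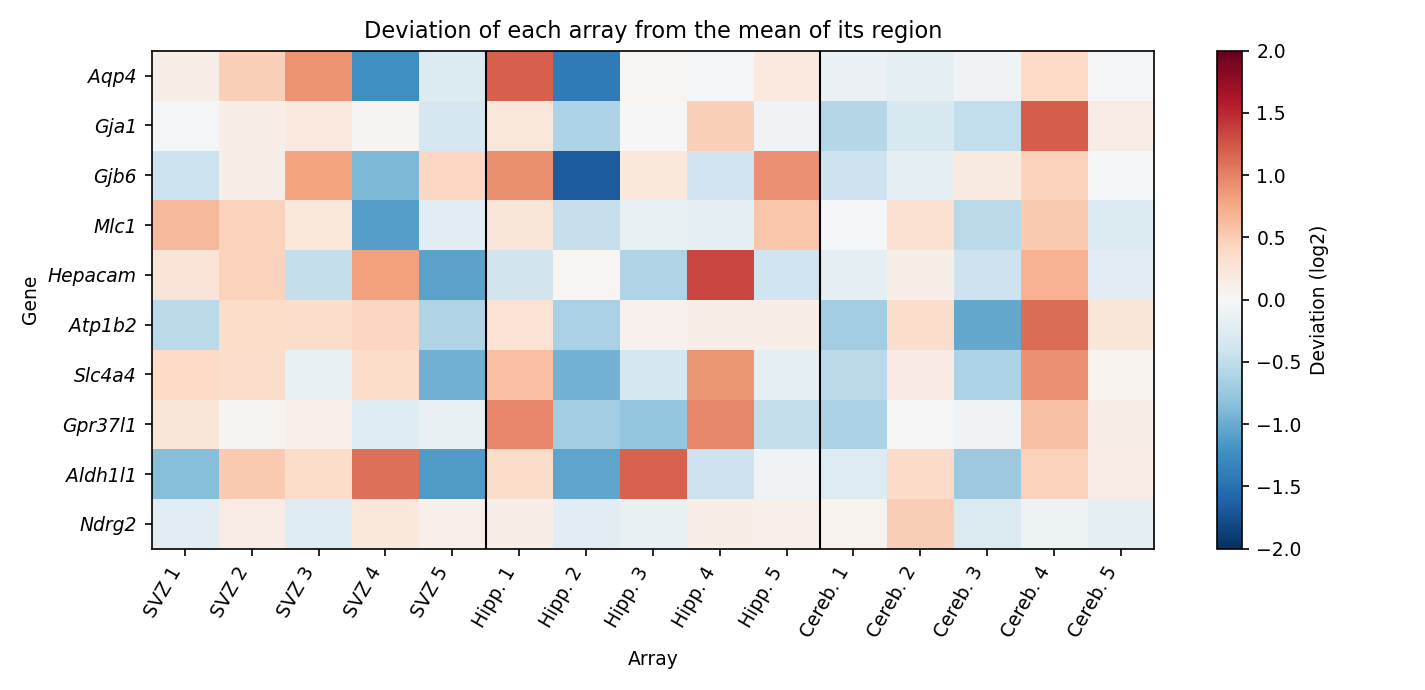
Deviation (log2, colour) of each array from the mean of its region for the 10 genes, with arrays in columns and lines between the regions. Hippocampus 2 is blue for 9 of 10 genes and cerebellum 4 is red for 9 of 10.

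Several genes had further probe sets, which read other parts of their transcripts. There were 14 further probe sets for 6 of the genes, and 12 of them, for 5 genes, had a mean level of at least 3. In SVZ against cerebellum all 12 had the sign of the probe set used, and in hippocampus 8 of 12. For Slc4a4, the 3 further bright probe sets differed by -1.40, -2.33 and -1.72 in SVZ and by -1.75, -1.72 and -1.95 in hippocampus, of which the last was called (adjusted p = 0.0391). For Aqp4 the further probe sets gave -1.33 and -1.18 in SVZ and -1.53 and -2.39 in hippocampus, none called.

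The 6 Gja1 probe sets were all above 0 in SVZ, by 0.33 to 0.56, and none was called. In hippocampus they ran from -0.02 to 0.88, with 4 of the 5 further probe sets above 0, so no direction can be given for Gja1 there. A further probe set of Aldh1l1 and 1 of Slc4a4 averaged near 1 in every region, close to the array medians, and carry no information on direction.

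**Figure D4:**
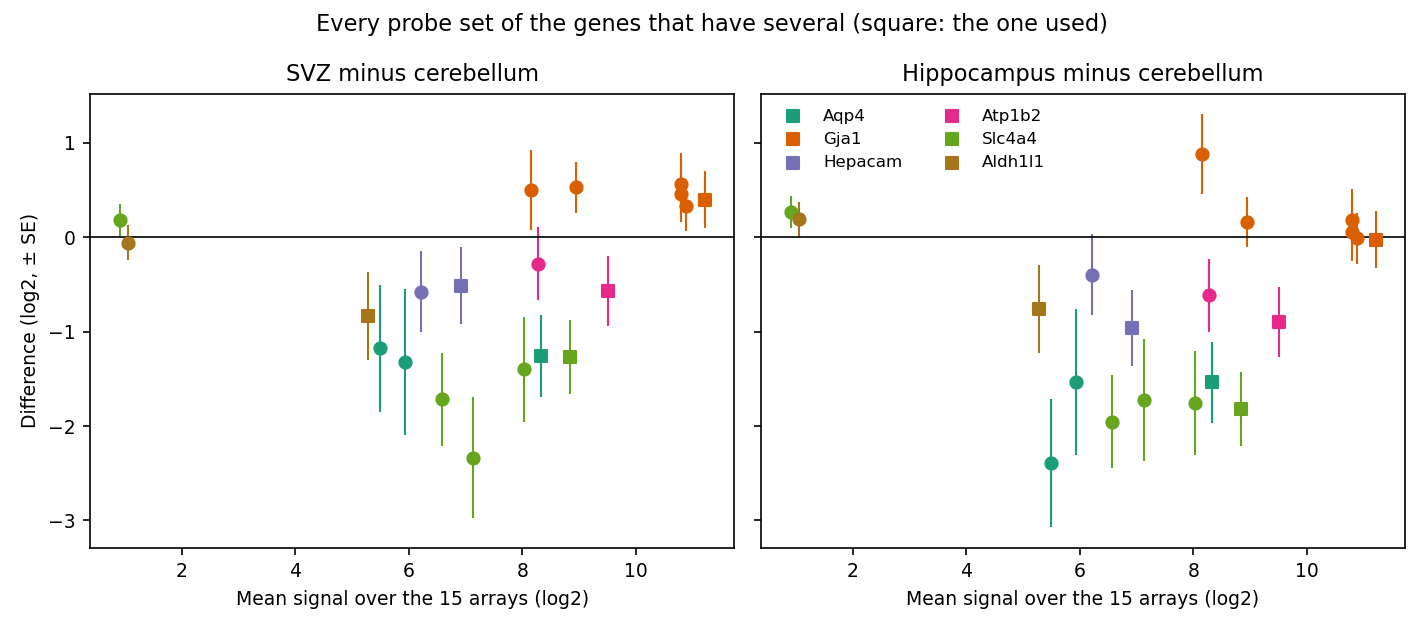
Difference from cerebellum (log2, ± SE, vertical axis) against mean signal (log2, horizontal axis) for every probe set of the 6 genes that have several, with squares for the probe set used. The bright probe sets of Slc4a4 and Aqp4 all lie below 0 in both panels, and those of Gja1 lie above 0 in SVZ and on both sides of 0 in hippocampus.

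The genes whose profile over the 15 arrays lay closest to each of the 10 were found by the root mean square difference of centred log2 values, among 4816 genes with a mean level of at least 3. The arrays share region and library, so this is a description. Gja1 was closest to Plpp3, a lipid phosphate phosphatase of astrocytes (0.265), Gpr37l1 to the endothelin receptor gene Ednrb (0.303), Slc4a4 to Fam107a (0.312), Hepacam to Rab10 (0.33), Ndrg2 to Tmbim6 (0.347), Atp1b2 to the tetraspanin gene Cd81 (0.359), Mlc1 to Acbd6 (0.411), Aqp4 to Cyp2j9 (0.458), Gjb6 to Emc3 (0.479) and Aldh1l1 to Atp1b2 (0.494). The median over all candidates was 1.07 to 1.3. Within the 10, Slc4a4 and Gpr37l1 were nearest each other (0.385), as were Aqp4 and Mlc1 (0.478).

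Of 96 related genes listed by family or complex, 80 were measured. In SVZ against cerebellum 3 were called lower and 0 higher, with a median difference of 0.066, where 4.47% and 1.03% of all genes were called. In hippocampus 5 were called lower and 1 higher, with a median of 0.147, against 3.97% and 0.808% of all genes. These counts lie near the shares over all genes. These lists hold many genes near the background, unlike the 10. SVZ against hippocampus called 0 of 80 by limma, with 8 at an unadjusted p under 0.05 (7.02% of all genes), and the smallest p values were those of the sodium pump regulator Fxyd6 (-0.79 ± 0.24, adjusted p = 0.478) and the volume channel subunit Lrrc8c (-0.74 ± 0.29, adjusted p = 0.621).

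Another connexin gene was called lower in both forebrain regions. Gjc3, connexin 29, which is known from myelinating glia, read 1.26, 1.34, 0.39, 0.93 and 3.91 in SVZ, 0.89, 0.98, 0.68, 0.96 and 0.53 in hippocampus, and 5.11, 5.77, 5.6, 6.21 and 5.21 in cerebellum. The forebrain arrays were near the background except SVZ 5, and all lay below cerebellum. With readings that near the background, the size of the difference is not a measure of the fold. The fitted difference was -4.01 ± 0.50 for SVZ (adjusted p = 0.000254) and -4.77 ± 0.50 for hippocampus (adjusted p = 4.6e-05), and it was -3.19 and -3.47 when the probe sets of the gene were averaged. Of the 7 oligodendrocyte markers measured, 0 were called by limma in either comparison (2 at an unadjusted p under 0.05 in each), and all 7 had a mean level below 3 in cerebellum. Gjb2, connexin 26, had 5.51 and 5.18 on SVZ 1 and 2 and 4.99 and 4.98 on hippocampus 4 and 5, with 1.64 to 1.90 in cerebellum, and was not called (adjusted p = 0.387 and 0.386).

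Kcnj10, the inward rectifier potassium channel of endfeet that sits beside Aqp4, was lower in hippocampus. Kcnj10 read 4.93, 5.06, 5.57, 5.45 and 5.29 in SVZ, 5.12, 4.07, 4.57, 5.45 and 5.35 in hippocampus, and 7.50, 6.63, 5.22, 6.97 and 6.19 in cerebellum. Cerebellum 3 lay within the forebrain range and the other cerebellum arrays above it. The difference was -1.59 ± 0.37 for hippocampus (adjusted p = 0.0256) and -1.24 ± 0.37 for SVZ (adjusted p = 0.0713). The hippocampus call held in 16 of 27 other settings, and the adjusted p passed 0.05 without hippocampus 3 (0.0630), cerebellum 1 (0.0568), cerebellum 2 (0.0630) or cerebellum 4 (0.0718). Among the endfoot scaffold genes, 9 were measured and Kcnj10 was the single one called in that comparison.

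The list of genes for acid, bicarbonate and lactate handling held transporters and carbonic anhydrases. Its member Car10, which encodes a carbonic anhydrase-related protein without the enzyme's activity, was lower, with a difference of -2.58 ± 0.39 for SVZ (adjusted p = 0.00136) and -2.37 ± 0.39 for hippocampus (adjusted p = 0.00239). Its forebrain means of 1.57 and 1.78 lay near the array medians, so the size of the difference is limited by the background. With the probe sets averaged the differences were -1.35 and -1.19, and the calls were lost with the spike-in covariate (adjusted p = 0.110 and 0.141). The lactate carrier gene Slc16a1 was lower in hippocampus, at -2.21 ± 0.47 (adjusted p = 0.0149) and not called for SVZ (-1.42 ± 0.47, adjusted p = 0.101). With the probe sets averaged the hippocampus value was -1.08, and its call was lost with the spike-in covariate (adjusted p = 0.437) and when cerebellum 4 and 5 were omitted (adjusted p = 0.137). Fxyd7, a small regulator of the sodium pump, differed by -0.98 ± 0.17 for SVZ (adjusted p = 0.00352) and -0.87 ± 0.17 for hippocampus (adjusted p = 0.00811), with a mean of 1.72 in cerebellum that lies near the array medians. Fxyd6 was higher in hippocampus by 1.17 ± 0.24 (adjusted p = 0.0111), at a mean of 1.98 against 0.80 in cerebellum, both near the background. That call was lost with the spike-in covariate (adjusted p = 0.212) and when cerebellum 4 and 5 were omitted (adjusted p = 0.0657).

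The partners of the volume control and receptor genes were not called. Clcn2, the chloride channel that Hepacam binds, differed by -1.59 ± 0.52 for SVZ (adjusted p = 0.0953) and -1.50 ± 0.52 for hippocampus (adjusted p = 0.121). Gpr37, the closest relative of Gpr37l1, differed by 0.63 ± 0.51 and 0.93 ± 0.51 (adjusted p = 0.498 and 0.322).

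Markers of Bergmann glia, the radial astroglia of the cerebellar cortex, moved with the same comparison. All 6 were called lower in both forebrain regions, with median differences of -5.28 in SVZ and -6.38 in hippocampus, and their summed level was 12.58 to 12.95 in cerebellum, 6.97 to 9.21 in SVZ and 7.80 to 8.43 in hippocampus. Microglia markers moved the other way, with 3 of 8 called higher in SVZ and 2 of 8 in hippocampus and summed levels of 8.91 to 12.11, 7.34 to 10.97 and 4.41 to 6.88 in SVZ, hippocampus and cerebellum. Of those 8, Cx3cr1, Tmem119 and P2ry12 had a mean level below 3 in every region. Of 9 ependymal markers, 0 were called by limma in either comparison (1 at an unadjusted p under 0.05 in each), with 8 below a mean level of 3 in SVZ and cerebellum. Of 6 markers of cerebellar neurons 2 were called lower in both forebrain regions, the Purkinje cell genes Calb1 (-1.52 and -1.61, adjusted p = 0.000653 and 0.000388) and Pcp2 (-1.97 and -2.11, adjusted p = 0.0315 and 0.0244). The summed level of those 6 was 3.98 to 5.66 in cerebellum, 3.43 to 3.88 in SVZ and 3.41 to 3.81 in hippocampus, and 5 of them were below a mean level of 3 in cerebellum. Of 9 endothelial and pericyte markers the pericyte gene Pdgfrb was called higher in SVZ (2.88, adjusted p = 0.0145), with summed levels of 5.92 to 8.67, 6.51 to 8.34 and 5.42 to 6.70 in SVZ, hippocampus and cerebellum. Of those 9, 7 were below a mean level of 3 in every region. The part of these cell types in the differences of the 10 genes was not tested.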

How the data were processed

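Expression was measured on 15 Affymetrix arrays, 5 per region, with groups taken from the sample titles. The deposited log2 values were made by the authors with RMA, as the submitters' processing notes say; log2 is read here from their range (array maxima 14.97 to 15.08), the base being unstated. Amplification was with the WT-Ovation Pico system, per the labels' protocols. Scan dates and the version of RMA: not given in the sources used here. Without detection calls, dim genes are limited by the background, and all genes by how many arrays there are.

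The platform annotation gave 1 symbol to 34945 of the 45101 probe sets and several to 932, and 9224 were unlisted or controls. Symbols were updated through Entrez identifiers for 34754. Each of 18193 genes was represented by its brightest probe set on average, and 9010 genes had several. limma 3.58.1 in R 4.3.3 with the package data.table, version 1.17.8, fitted region over all 15 arrays, with Benjamini-Hochberg adjustment over all genes fitted. The further probe sets come from a separate fit, adjusted over the 34945 probe sets with 1 symbol. A call was an adjusted p under 0.05, and every adjusted p given comes from limma. The code was checked on simulated data. Plots used Python 3.11.15, pandas 2.3.3 and matplotlib 3.10.9.

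The 10 genes, the lists of related genes and markers, and the tests were chosen with earlier results of these data known. Named genes were the 10, up to 8 called related genes per comparison (2 with the smallest p where none was called), partners in the same complex, and the closest profile to each. Alternatives were a replicate block, quantile normalization, median centring, leaving out genes with a mean level under 3, averaging the probe sets of a gene, each further probe set, array weights, a trended and robust spread, the compared groups only, an adjusted p under 0.01, sets of arrays left out, the spike-in level as a covariate, and leaving out each array in turn. Summed marker levels are log2 of the sum of linear signals.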

Additional observations from a re-analysis of the deposited data

Results flagged for a closer look

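In 2 of 30 groups of 5 arrays (10 genes in 3 regions) 1 array stood far from the others of its region. Chance gives about 1 in 20 groups, so this count lies near that share. Aqp4, the endfoot water channel, read 9.66 on cerebellum 4, and its gap to the nearest array was 0.717 of the range of the region. That range was narrow, with an SD of 0.23 in cerebellum. Atp1b2, the sodium pump subunit, read 8.45 on hippocampus 2, with a gap of 0.787 of the range. The same arrays were the highest of their region for 9 of the 10 genes (cerebellum 4) and the lowest for 8 of the 10 (hippocampus 2).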

How the results depend on the processing

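Ndrg2 was called in every setting run, in both comparisons with cerebellum. The other calls moved with the processing. Against the 2 genes called in SVZ and the 4 in hippocampus, quantile normalization left 1 and 2, omitting cerebellum 4 and 5 left 1 and 1, the spike-in covariate 1 and 1, an adjusted p under 0.01 left 1 and 2, and omitting hippocampus 2, hippocampus 5 and cerebellum 5, chosen after seeing the data, 1 and 1. Averaging the probe sets of a gene gave 4 in SVZ. Leaving out each array in turn gave 1 to 3 in SVZ and 3 to 5 in hippocampus. With the replicate number as a replicate block, 1 of the 10 genes was called in SVZ and 4 in hippocampus, where Mlc1 was lost (adjusted p = 0.0666 and 0.0552) and Hepacam was gained in hippocampus (0.0406). Pairs of arrays from different regions were compared by their deviations from the region means, not by their signals. Those of same-numbered arrays correlated at -0.12 to 0.138 (median 0.058, 4 of 15 pairs over 0.1). Those of other pairs had a median of -0.013 (1 of 60 over 0.1). Of 30 best partners 17 shared the number, where each was picked from 5 arrays and 1 of the 5 shared it. That is more than an even pick would give, and a hint of pairing from the data. Since not every same-numbered pair passed 0.1 and the labels name no shared batch, the fit without the block was kept. Whether the arrays were paired cannot be settled from these values, and the calls of Mlc1, and of Hepacam in hippocampus, depend on it.

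Of the related genes, against 3 called in SVZ and 6 in hippocampus, the replicate block gave 5 in SVZ, the mean of probe sets 5, the compared groups alone 5, and the spike-in covariate 1 in each. Leaving out genes with a mean under 3, Gjc3 among them, gave 0 and 2, and omitting cerebellum 4 and 5 gave 2 in hippocampus. Leaving out each array gave 3 to 4 and 5 to 7. No setting called any of the 10 genes or the related genes in SVZ against hippocampus.

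Signs turned in the following cases. Gja1 in hippocampus against cerebellum was 0.014 with quantile normalization, 0.21 with the mean of probe sets, 0.43 without cerebellum 4 and 5, 0.44 with the spike-in covariate and 0.245 without the 3 arrays chosen after seeing the data, and -0.17 to 0.28 with each array left out. Its further probe sets gave 0.056, 0.19, 0.16 and 0.88, and 1 gave -0.38 for SVZ against hippocampus. Atp1b2 in SVZ was 0.016 with the spike-in covariate. For SVZ against hippocampus, omitting SVZ 1 and hippocampus 3 gave 0.13 for Gjb6, -0.088 for Mlc1 and 0.43 for Aldh1l1, and omitting the 3 arrays gave -0.13 for Aqp4. Each array left out gave -0.45 to 0.20 for Gjb6, -0.052 to 0.39 for Mlc1, -0.35 to 0.22 for Aldh1l1 and -0.074 to 0.58 for Aqp4. Further probe sets gave -0.18 for Hepacam and -0.61 for Slc4a4. A dim Slc4a4 probe set gave 0.18 in SVZ, 0.27 in hippocampus, where the brightest was called lower, and -0.084 between them, and a dim Aldh1l1 probe set 0.19 in hippocampus. The cause was not tested.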
